A study of Drosophila melanogaster with 12 samples.

Results

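The ends of 4 chromosome arms of Drosophila melanogaster were examined in maps of nucleosome positions from Gcm-expressed neural progenitor cells (GNP) and from glia. A tip was the outermost 200 kb of 2L, 3L or X, or the 3R sequence from 27700001 to 27900000, the upper limit of the last 20-kb step with calls, all in dm3 coordinates. Members were chosen by the start of each predicted nucleosome alone. The last GNP starts inside the limit were 199894 (2L), 199914 (3L), 199965 (X) and 27700142 (3R), and the next ones outside were 200107, 200083, 200265 and 27699943. In glia the starts inside were 199908, 199757, 199770 and 27700226, and those outside 200107, 200084, 200061 and 27699892. They numbered 3013 of 522119 in GNP (0.577%) and 2956 of 510664 in glia (0.579%). The 1 Mb next to each tip on the same arm served as background and held 17700 and 17303 nucleosomes.

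By the labels, GNP nuclei came from embryos aged 5 to 7 h that carried gcm-Gal4 with UAS-mCDGFP over the balancer cyo, and also UAS-3xFLAG-blrp-mCherry-RanGap. Glial nuclei came from embryos aged 12 to 14 h that carried repo-Gal4 together with UAS-3xFLAG-blrp-mCherry-RanGap over the balancer Tm3B. In both lines Gal4 drives a tagged protein of the nuclear envelope, by which nuclei were pulled down (INTACT). gcm also acts in precursors of blood cells, and the labels call the GNP sample early glial cells and the glia sample late glial cells. Positions alone do not allow a check of either identity against marker genes. The methods describe the final GNP line without a balancer, which differs from the label. They state that the glial line was kept over the balancer Tm3 and crossed to itself, so its embryos were of mixed genotype. Micrococcal nuclease (MNase) digested the linker DNA, and the protected DNA was sequenced, with 1 library per cell type. Cell type, embryo age, fly stock and library therefore cannot be told apart, and no difference below has a replicate check or a test. The deposited lists hold positions only, so the number of reads behind each nucleosome is unknown. Positions carry an uncertainty of 1 bp because the lists do not state whether they count from 0 or from 1.

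Drosophila has no telomerase. Its chromosome ends are extended by retrotransposons (HeT-A, TART and TAHRE) that insert at the terminus, and arrays of subterminal repeats often lie between them and the first unique sequence. Heterochromatin proteins such as HP1 cover the ends, and transgenes inserted next to them are often silenced. Reads from repeats that occur at several ends cannot be placed uniquely. The authors kept uniquely mapped reads, so sequence of that kind can hold DNA without a predicted nucleosome. How uniquely each stretch can be mapped was not measured here.

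In the Release 6 annotation of RefSeq, used for names and order only, the outermost protein-coding genes of 2L were l(2)gl, a tumour suppressor of cell polarity that acts in dividing neuroblasts, Ir21a, an ionotropic receptor of cool-sensing neurons, and Cda5, a chitin deacetylase. On 3L they were mthl8, a member of the methuselah-like receptor family, CG43149 and Lsp1gamma, a larval storage protein. On X the order began with SteXh:CG42398 and CG17636. On 3R the outermost genes were Map205, which encodes a microtubule-associated protein, mod, which encodes a nucleolar protein, and krz, which encodes a non-visual arrestin. The step in which each gene lies was not determined, because no annotation of the dm3 build was used here.

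The first comparison asked how many nucleosomes each tip held in either cell type. The 2L tip had 859 in GNP and 838 in glia, the 3L tip 773 and 740, and the X tip 606 and 597. The 3R tip had 775 in GNP and 781 in glia and was the single tip with more in glia. Over the 4 tips glia had 57 fewer nucleosomes, 1.89% of the GNP number, and in the inward sequence 2.24% fewer. Glia had the larger number in 13 of 38 tip steps that held at least 20 nucleosomes in both maps together, GNP in 24, and the numbers were equal in 1. Among all 20-kb steps of the 6 arms glia had more in 25.4%. None of the 38 tip steps differed 1.5-fold in either direction. Among all steps, 0.0501% were at least 1.5-fold higher in glia and 0% were at least 1.5-fold lower. Of 74 tip steps of 10 kb, 1 was at least 1.5-fold higher in glia, beside 0.0422% of all such steps, and 1 was at least 1.5-fold lower, beside 0.00843%. They were the end of 3R (27890001 to 27900000, 4 GNP and 31 glial nucleosomes) and the start of the second 3L step (20001 to 30000, 41 and 24). The shares of all such steps include both. Of 11861 steps, 5 were higher in glia, the 3R step among them, and 1 was lower, which is this 3L step.

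Read from the end inward, the 20-kb steps of the 2L tip held 62, 88, 65, 87, 94, 92, 93, 98, 91 and 89 GNP nucleosomes. The same steps held 59, 85, 72, 83, 93, 86, 86, 90, 93 and 91 glial nucleosomes. The first and the third step were low in both maps. The largest log2 ratio of glia over GNP, 0.15, was in the third step (65 against 72, exact Poisson intervals at the 95% level of 50.2 to 82.8 and 56.3 to 90.7). Here the intervals overlapped. Poisson intervals cover only the counting error of independent calls. Neighbouring starts were at least 147 bp apart, so the calls were not independent, and overlap does not show that the maps are alike.

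The 3L tip began almost empty. Its first step held 2 GNP nucleosomes and 1 glial nucleosome, and the following 9 held 86, 88, 89, 91, 43, 93, 97, 91 and 93 in GNP and 66, 89, 91, 86, 42, 90, 92, 89 and 94 in glia. The second step was low in glia alone (86 against 66, intervals 68.8 to 106 and 51.0 to 84.0, log2 ratio -0.38). These intervals overlapped. The sixth was low in both maps. The first step had a ratio of -0.58 from these 3 nucleosomes and fell under the minimum of 20.

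The X tip was the emptiest of the 4. Its steps held 41, 90, 77, 63, 81, 1, 15, 92, 95 and 51 nucleosomes in GNP and 44, 92, 76, 61, 76, 2, 14, 90, 90 and 52 in glia. The sixth step, with a log2 ratio of 0.58 from 3 nucleosomes, was under the minimum of 20. Of the others, the first step had the largest ratio, 0.10, and its intervals overlapped (29.4 to 55.6 in GNP, 32.0 to 59.1 in glia).

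The 3R tip was the one that differed at its outermost step. From the end inward GNP had 49, 96, 91, 59, 67, 92, 90, 92, 76 and 63 nucleosomes, and glia had 73, 87, 88, 59, 68, 88, 91, 88, 77 and 62. In the outermost step the log2 ratio was 0.57, just under the 1.5-fold limit. Its intervals, 36.3 to 64.8 in GNP and 57.2 to 91.8 in glia, overlapped. The ratios of the 200 inward steps of the 4 arms ran from -0.23 to 0.11, and this step, the second step of 3L and the third of 2L lay outside that range. Without its outermost step the 3R tip had more nucleosomes in GNP, 726 against 708.

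**Figure D1:**
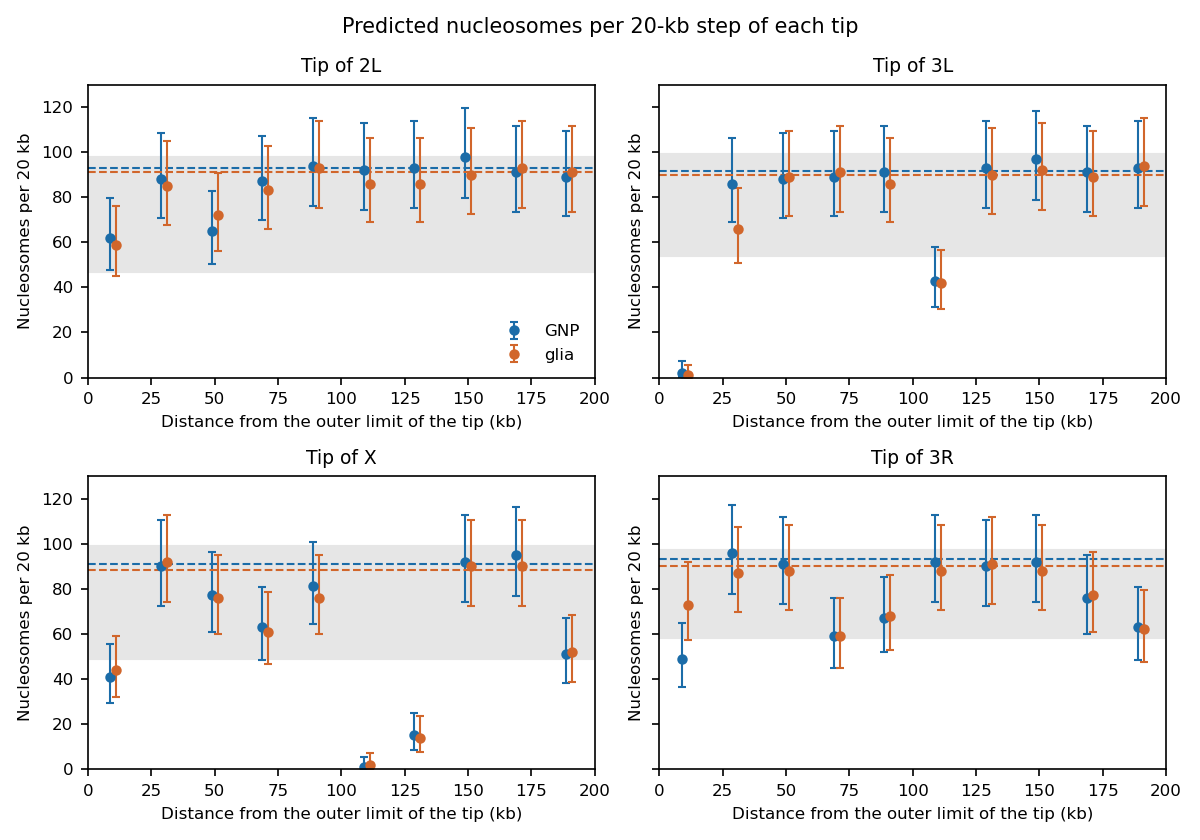
Predicted nucleosomes per 20-kb step (vertical axis) by distance in kb from the outer limit of each tip, for GNP (blue) and glia (orange), with exact Poisson 95% intervals as bars. The grey band spans the lowest and highest of the 50 inward steps of the same arm in either map and the dashed lines are their medians. The first step of 3L and the sixth of X held 3 nucleosomes or fewer in both maps together. The numbers differ most in the outermost step of 3R (49 and 73) and the second of 3L (86 and 66), with overlapping intervals in both.

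The tips were then compared with the sequence next to them. Density over the 4 tips was 3766 nucleosomes per Mb in GNP and 3695 in glia, against 4425 and 4326 per Mb in the inward sequence, which is 14.9% and 14.6% lower. By tip, the density in GNP was 30.4% lower on X, 13.8% on 3R, 12.3% on 3L and 3.33% on 2L. In glia it was 29.8%, 10.7%, 14.4% and 3.81% lower. In GNP 7 of the 40 tip steps, and in glia 5, held fewer nucleosomes than any of the 50 inward steps of their arm, and none of these were on 2L.

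Sequence without any call took up more of the tips than of the inward sequence. Stretches without a nucleosome between neighbouring dyads (nucleosome centres) more than 500 bp apart, measured from edge to edge, took up 13.6% of the tips in GNP and 14.2% in glia, against 4.42% and 4.44% of the inward sequence. The X tip had 33.0% of its sequence in such stretches in GNP and 32.6% in glia. On 3R it was 11.2% and 11.9% and on 3L 6.17% and 8.50%. On 2L, with 3.95% and 3.82%, it was lower than the 4.34% of its inward sequence in both maps. A further 5172 bp on 2L, 19712 bp on 3L, 1607 bp on X and 8892 bp on 3R lay outside the outermost GNP nucleosome, counted on 3R from the outer limit of the outermost step. In the sequence that remained, density was 4594 per Mb in the GNP tips and 4630 per Mb inward, and 4489 and 4527 per Mb in glia. That is 0.778% and 0.841% lower in the tips. By arm this difference ran from -1.52% on 3R to 0.0104% on 3L in GNP and from -1.73% on 2L to 0.671% on 3L in glia. This setting was chosen after the values were seen, and it removes the sequence without calls, so it mostly restates the spacing given further on. With the stretches alone removed, the tips were 5.86% lower in GNP and 4.86% lower in glia.

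Most of these stretches were the same in both cell types. Of 109 kb in GNP stretches, 96.4% was also free of calls in glia, and of 114 kb in glial stretches 92.2% was also free in GNP. The longest lay on X from 100183 to 132550 in GNP (32.4 kb). It held 2 glial dyads, and the longest glial stretch ran from 103059 to 132547 (29.5 kb). These stretches fill the sixth step of X and part of the seventh, the steps with the lowest numbers. Next on X was 56860 to 64520 in GNP (7.66 kb), where glia was free from 57252 to 64360, and then 189920 to 197420, which ended 2 bp earlier in glia. No stretch of the inward sequence was longer than 9.13 kb.

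The other tips held no stretch as long as the longest of X. On 3L the longest was 110348 to 119434 in GNP and 110343 to 119382 in glia, followed by 101505 to 103580 and 101630 to 103581. On 3R they were 27714125 to 27722624 in GNP (8.50 kb, in glia from 27714241 to 27722766) and 27823705 to 27831225 (7.52 kb, in glia from 27823787 to 27831115). The 2L tip had 47516 to 52478 (4.96 kb, in glia from 47617 to 52386) and 20506 to 21564 (1.06 kb, in glia from 20363 to 21627). The longest stretches of 2L and 3L lie in the third and the sixth step of these tips, which were low in both maps. Glia had 10 stretches in the 3L tip and GNP 3, and 70.4% of the glial stretch sequence there was shared, the lowest of the 4 tips.

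**Figure D2:**
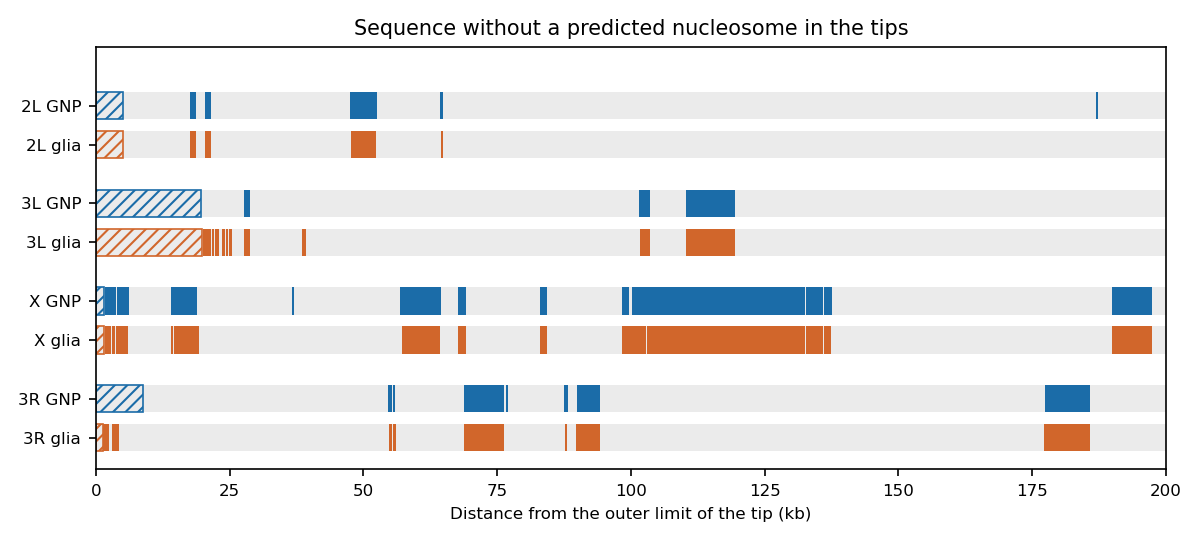
Sequence without a predicted nucleosome in each tip, drawn to scale by distance in kb from the outer limit of the tip, 1 row per arm and cell type. Filled bars are stretches between dyads over 500 bp apart, hatched boxes are the sequence outside the outermost nucleosome, and grey is the rest. The rows of one arm share nearly all long bars, and differ at the end of 3R and next to the hatched box of 3L.

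The outermost nucleosome was at nearly the same place on 3 arms. On 2L it started at 5173 in GNP and 5095 in glia, on 3L at 19713 and 19887, and on X at 1608 and 1521, which are 78, 174 and 87 bp apart. On 3R the last GNP nucleosome spanned 27890962 to 27891108 and the last glial one 27898556 to 27898702, 7594 bp farther out. No call of either map lay beyond the outermost step.

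The end of 3R held the longest run of gained nucleosomes. By the study's rule, a glial nucleosome was called gained, and a GNP nucleosome lost, if its overlap with the nearest one in the other cell type did not exceed 20 bp. From 27891093 to 27898702, 27 glial nucleosomes in a row were gained, and the first of them overlapped the last GNP nucleosome by 15 bp. Their median distance was 237 bp (lowest 149 bp, highest 1100 bp), 23 of 26 distances were 500 bp or less, and 7 were from 160 to 200 bp. In the 10 kb just inward the maps held 44 and 41 nucleosomes, 2 GNP nucleosomes were lost, and 29.5% had a glial dyad within 10 bp. The maps parted within the length of 1 nucleosome. No run of 3 or more gained nucleosomes occurred in the other 3 tips or in the 4 Mb inward.

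At the end of 3L the difference was opposite and partial. Between 19713 and 25306 GNP had 25 nucleosomes with a median distance of 204.5 bp, and glia had 7 with a median distance of 674 bp. Of the 25, 19 were lost (76.0%, Wilson 95% interval 56.6% to 88.5%), among them runs of 6 (20092 to 21464), 4 (22431 to 23310) and 3 (23553 to 24035). One of the 7 glial nucleosomes was gained and 2 had a GNP dyad within 10 bp. In the rest of that step, to 40000, the maps held 63 and 60 nucleosomes, of which 4 were lost and 2 gained. The limits of this region were set after its values were seen. Among the 4 inward sequences the longest run of lost nucleosomes was 4, on X, and it was the single run of 3 or more.

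**Figure D3:**
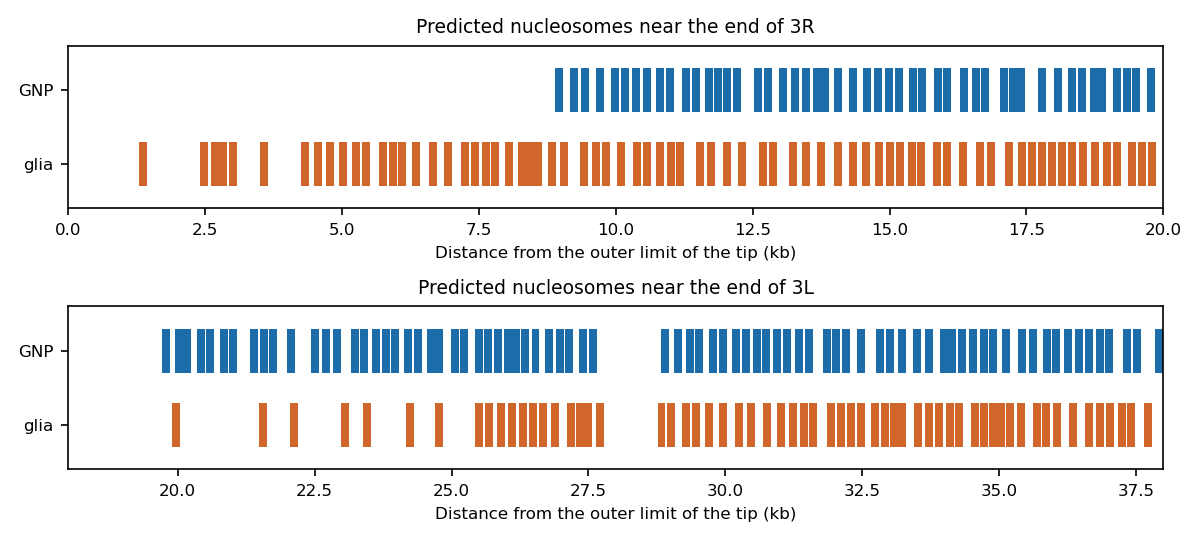
Each predicted nucleosome as a box (146 bp) in GNP (blue) and glia (orange) over the outermost 20 kb of the 3R tip and over the 3L tip from 18 to 38 kb, by distance in kb from the outer limit of the tip. On 3R the GNP row stops 8892 bp from the limit and the glia row goes on to 1298 bp from it, and on 3L the glia row is sparse (7 boxes against 25) before the rows become alike.

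Loss and gain were then counted over whole tips. Loss is a share of GNP nucleosomes and gain a share of glial ones. The study gives fixed, shifted, lost and gained nucleosomes as shares of a single total, so its percentages are not comparable with these. Of the GNP nucleosomes of the tips, 143 were lost, which is 4.75% (4.04% to 5.56%), beside 4.47% of the whole map and 4.49% (4.20% to 4.81%) inward. Of the glial nucleosomes 152 were gained, 5.14% (4.40% to 6.0%), beside 3.97% of the whole map and 3.70% (3.43% to 3.99%) inward. The intervals of loss and gain overlapped in the tips, and their order depended on 3R. Without the outermost 20 kb of each tip 4.69% were lost and 4.28% gained, and without the 3R tip 5.14% were lost and 4.37% gained. The 27 nucleosomes at the end of 3R made up 17.8% of all gains, and the 19 at the end of 3L 13.3% of all losses. Without the outermost step of 3R and the 2 outermost steps of 3L, 4.10% (3.44% to 4.89%) were lost and 4.30% (3.61% to 5.11%) gained. These steps were chosen after their values were seen. The intervals of tips and inward sequence then overlapped for gain, and for loss they had overlapped with all steps too. These intervals treat neighbouring nucleosomes as independent, which they are not.

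By tip, the intervals of loss and gain overlapped on 2L, 3L and X but not on 3R. Without the outermost step of 3R they overlapped there too. On 2L 42 nucleosomes were lost (4.89%) and 44 gained (5.25%, interval 3.93% to 6.98%), beside 4.57% and 3.70% (3.18% to 4.30%) inward, and every one of them stood alone. Nearly all stood alone inward as well. With single nucleosomes counted as runs, 2 of 201 lost and 1 of 160 gained runs there held 2 or more. The third step of 2L, which holds the 4.96-kb stretch, had 8 of its 72 glial nucleosomes gained (11.1%). On 3L 46 were lost (5.95%) and 26 gained (3.51%), on X 27 were lost (4.46%) and 25 gained (4.19%), and on 3R 28 were lost (3.61%) and 57 gained (7.30%). On X the longest runs held 2 nucleosomes, a lost pair from 98275 to 99875 and a gained pair from 57106 to 64506. That gained pair flanks the 7.11-kb stretch of glia. Outside the outer steps, 3.36% were lost on 3L and 4.10% gained on 3R.

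**Figure D4:**
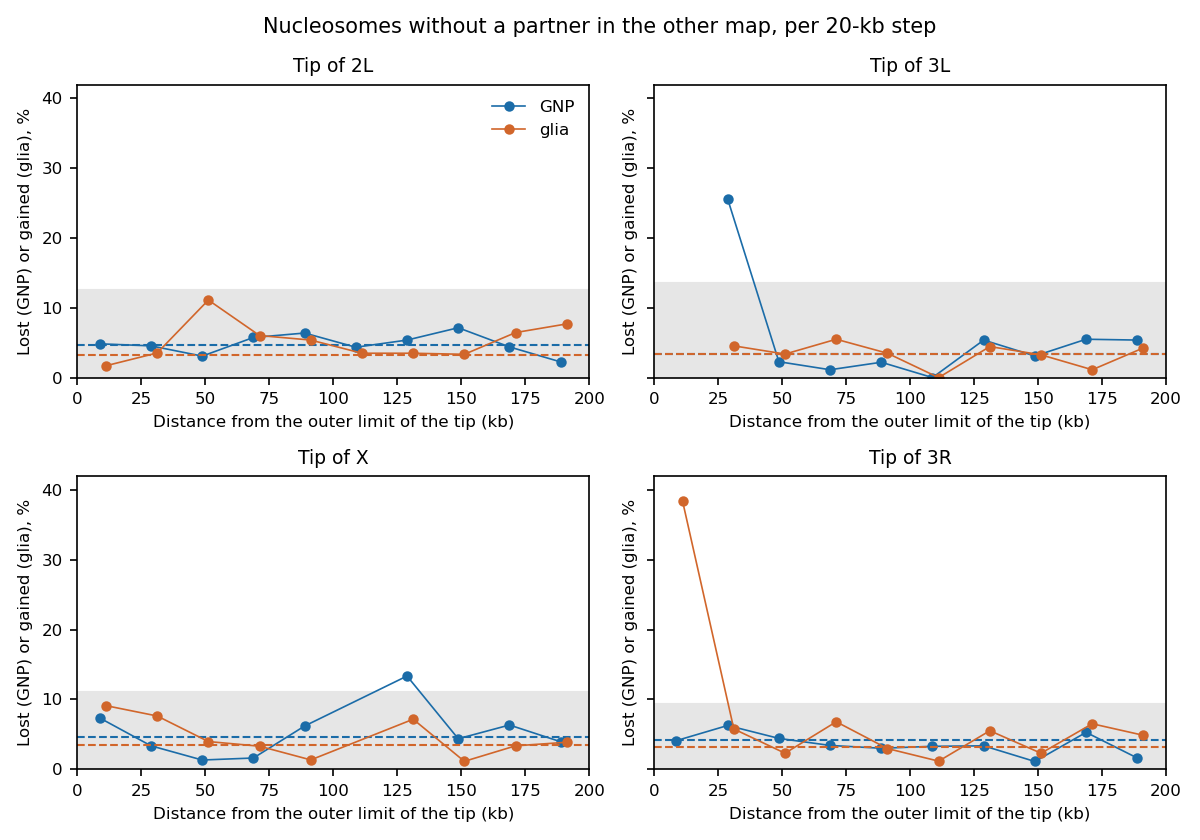
Percent of GNP nucleosomes lost (blue) and of glial nucleosomes gained (orange) per 20-kb step with at least 20 nucleosomes in both maps together, by distance in kb from the outer limit of each tip. The grey band spans the 50 inward steps of the arm and dashed lines are their medians. The second step of 3L (25.6% lost) and the first of 3R (38.4% gained) stand above every inward step of the 4 arms, whose highest values were 13.5% and 12.5%. The seventh step of X (13.3% lost) rests on 2 of 15 nucleosomes.

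Whether nucleosomes kept their places was measured by the distance from each dyad to the closest dyad of the other map. Within 10 bp lay 26.7% (25.1% to 28.3%) of GNP and 27.2% (25.6% to 28.8%) of glial tip nucleosomes, beside 28.7% and 29.3% of the whole maps. Inward it was 28.5% (27.8% to 29.1%) and 29.1% (28.4% to 29.8%). Of the GNP tip nucleosomes 56 had an identical start in glia, which is 1.86% (1.43% to 2.41%), against 1.73% inward. By tip the share within 10 bp in GNP was 25.7% on 2L, 25.2% on 3L, 27.2% on X and 28.6% on 3R, and inward 28.2%, 30.6%, 26.2% and 28.9%. The interval of the 3L tip, 22.3% to 28.4%, did not reach that of its inward sequence, 29.2% to 32.0%. Without its 2 outer steps the 3L tip had 26.4% (23.3% to 29.9%), which did. On the other 3 arms the intervals overlapped.

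The median distance from a GNP dyad to the closest glial dyad was 45 bp (interval 42 to 48 bp) in the tips and 37 bp (36 to 38 bp) inward. On 2L it was 46 bp (41 to 53 bp) against 35 bp (32 to 38 bp) inward, and on 3L 47 bp (40 to 53 bp) against 36 bp (33 to 39 bp). On 3R, with 43 bp (36 to 51 bp) against 36 bp (33 to 39 bp), and on X, with 40 bp (31 to 46 bp) against 41 bp (38 to 44 bp), the intervals overlapped. Distances from 61 to 125 bp made up 37.0% of the tip nucleosomes and 33.0% inward. Without the 3 outer steps named above the tip median was 44 bp. On 3R the closest glial dyad lay toward the end of the arm for 53.8% of GNP nucleosomes (50.3% to 57.3%) and away from it for 44.4%, against 48.6% and 49.6% on the inward 3R sequence. On X these shares were 52.1% toward the end and 46.0% away from it, on 2L 50.4% and 47.3%, and on 3L 48.8% and 49.8%. Whether the tips differ in this was not tested.

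**Figure D5:**
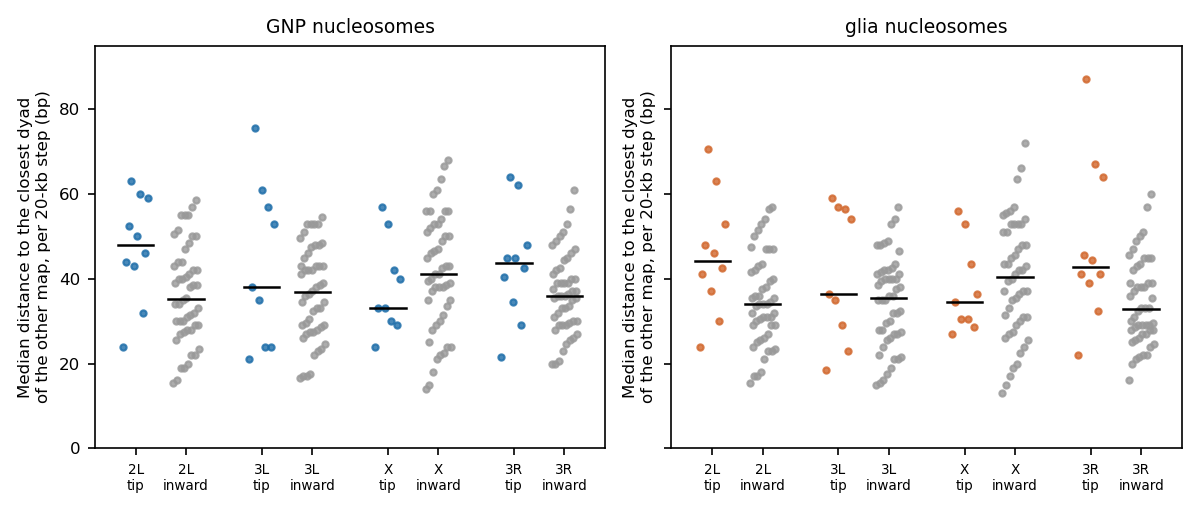
Median distance in bp from the dyads of a 20-kb step to the closest dyad of the other map, for GNP (left) and glia (right), with 1 point per step of at least 20 nucleosomes in both maps together in the tips (coloured) and in the inward sequence (grey) and a line at the median of the points. In GNP the median over steps is higher in the tips of 2L and 3R (48 and 43.8 bp) than inward (35.2 and 36 bp), close on 3L (38 against 36.8 bp) and lower on X (33 against 41 bp).

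Runs of GNP nucleosomes close to a glial dyad occurred in each tip. Whether they were longer than in unrelated maps was not tested. The longest run of GNP nucleosomes that all had a glial dyad within 10 bp was 8 on 3L (125187 to 126684), 7 on 2L (57977 to 59410), 6 on X (7613 to 8919) and 5 on 3R (27774744 to 27775937). The 3L tip also had runs of 7 (177723 to 179278), 6 (182941 to 183977) and 5 (72275 to 73283). The run on 2L lies in the same step as its longest stretch without calls, and the run on X lies in the outermost step. In the 1 Mb next to the tips, a span 5 times as long, the longest runs were 11 on 3L, 7 on 2L and 6 on X and 3R. Single nucleosomes also counted as runs. On 2L 18 of 148 runs held 3 or more nucleosomes, and 87 of 837 inward. On 3L it was 13 of 124 and 111 of 857, and on X 13 of 103 and 88 of 759. On 3R it was 18 of 142 and 101 of 860, so runs of this length were about as common inward.

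Spacing in the tips was close to that of the inward sequence. The median distance of neighbouring dyads was 202 bp (199 to 205 bp) in the GNP tips and 210 bp (207 to 213 bp) in the glial tips, against 199 and 208 bp inward. It was wider in glia in each tip, by 8 bp on 2L, 7 bp on 3L, 6 bp on X and 10 bp on 3R. Distances from 160 to 200 bp made up 39.7% (38.0% to 41.5%) of the distances in the GNP tips and 35.6% (33.9% to 37.3%) in the glial tips, against 41.7% and 36.1% inward. This share was lower in glia in each of the 4 tips. In counts of all dyad pairs by distance, smoothed over 21 bp, the first repeat of the tips peaked at 177 bp in GNP and 185 bp in glia and exceeded the following trough 4.57-fold and 3.33-fold. Inward these contrasts were 4.41-fold and 3.43-fold, with peaks at 173 and 176 bp. The second repeat exceeded its trough 2.04-fold in the GNP tips and 1.45-fold in the glial tips, against 1.84-fold and 1.29-fold inward. Both contrasts were lower in glia, in the tips and inward. Calls of 1 map cannot overlap, which alone can raise a first peak, and no baseline for this was computed. These contrasts by themselves therefore do not show regular arrays.

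Gaps of at least 150 bp without a nucleosome, between dyads at most 500 bp apart, are the length that the study used for depleted regions. GNP had 346 in the tips, 11.5 per 100 distances (10.4 to 12.7), and glia 382, 12.9 per 100 (11.8 to 14.2), against 11.0 and 12.1 inward. Glia had more than GNP in each tip, 110 against 103 on 2L, 83 against 82 on 3L, 89 against 73 on X and 100 against 88 on 3R. For gaps of at least 200 bp the order over the 4 tips was opposite, with 3.32 per 100 distances in GNP and 3.05 in glia. Inward the order was opposite too, with lower values of 2.73 and 2.37. Median lengths were 179 bp in GNP and 175 bp in glia. A glial dyad lay inside 65.6% (60.5% to 70.4%) of the GNP gaps and a GNP dyad inside 69.9% (65.1% to 74.3%) of the glial gaps, against 68.5% and 71.2% inward, so these intervals over the 4 tips held the inward values. The lowest share was on X, where 60.3% (48.8% to 70.7%) of 73 GNP gaps held a glial dyad, below the 71.7% (67.6% to 75.5%) of the X inward sequence, with overlapping intervals.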

How the data were processed

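MNase-seq positions of 1 GNP and 1 glia library were used, and the 10 ChIP-seq samples of the series were left aside. As stated in the study's methods and the submitters' processing notes, the authors aligned single-end reads to dm3 with Bowtie 0.12.7, allowing up to 2 mismatches, kept uniquely mapped reads and called positions with GeneTrack, whose settings are not given in the sources used here. The deposited lists give chromosome, start and end. End minus start was 146 bp throughout, and neighbouring starts were at least 147 bp apart. Depth is unknown.

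Nucleosomes were assigned to a tip, to its 10 steps of 20 kb or to the 50 inward steps by their start. On 3R steps were counted from the upper limit of the last full step that holds calls. Log2 ratios had a pseudocount of 1. Distances between dyads equal distances between starts. Intervals at the 95% level were exact Poisson for numbers, Wilson for shares and order statistics for medians, and cover counting error only. They treat calls as independent, although calls of 1 map cannot overlap. Python 3.11.15, numpy 2.4.6 and scipy 1.17.1 were used. The counts of lost nucleosomes and of dyads within 10 bp were checked on GNP tip calls with known removals and shifts. Gains, gaps, stretches, runs and spacing were not checked in this way. Named regions were, for each tip, the outermost calls, the step of largest ratio, the 2 longest stretches without calls, and the longest runs of lost and of gained nucleosomes. Runs of nucleosomes within 10 bp of a dyad of the other map and the end of 3L were added after their values were seen. Members and rules were chosen with earlier results of these maps known.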

Additional observations from a re-analysis of the deposited data

How the results depend on the processing

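Across 118 alternative values, 90 stayed inside the interval of the value, 27 moved and 1 reversed. Of the 118, 13 were added after seeing the data. Many alternatives share most calls with the main value, so staying inside its interval was likely for them. Only log2 ratios and density differences could be labelled reversed. Changes of order between loss and gain, or between the cell types in gaps, were not counted as such. Numbers of called steps were judged by a 1.5-fold change instead of an interval. The reversal was the log2 ratio of glia over GNP in the 3R tip, which went from 0.011 to -0.036 without the outermost 20 kb, since the step with the gained run was removed. In steps of 10 kb, 1 of 74 tip steps was at least 1.5-fold higher in glia (27890001 to 27900000 on 3R, 4 and 31 nucleosomes) and 1 at least 1.5-fold lower (20001 to 30000 on 3L, 41 and 24), beside 0.0422% and 0.00843% of all such steps. The first share includes the 3R step, and the second is the 3L step alone. The density difference from the inward sequence went from -14.9% (GNP) and -14.6% (glia) to -10.3% and -10.8% without the outermost 20 kb and to -5.86% and -4.86% without stretches over 500 bp. It was -0.778% and -0.841% when the sequence outside the outermost calls was also left out, an alternative chosen after seeing the data. With 1 tip left out it ran from -18.8% to -9.84% in GNP and from -18.2% to -9.60% in glia, the upper values without X. The share kept was 1.86% (GNP) and 1.89% (glia) at 0 bp and 37.6% and 38.4% within 20 bp. With no overlap allowed 2.29% were lost and 2.84% gained (inward 1.95% and 1.66%). With 73 bp or less it was 32.5% and 31.2% (inward 28.7% and 27.1%). These changes follow from the definitions. Leaving out nucleosomes that lie in a long stretch of the opposite cell type gave 4.01% lost and 3.98% gained, against 4.41% and 3.63% inward. Loss was then lower in the tips than inward, opposite to the 4.75% and 4.49% with all nucleosomes. Gained nucleosomes were 4.28% without the outermost 20 kb, where 4.69% were lost, and 4.30% without the steps that stand apart, the latter chosen after seeing the data, and from 4.37% to 5.69% with 1 tip left out, the lowest without 3R, where 5.14% were lost. Without the outermost 20 kb and without 3R, loss exceeded gain, opposite to the 4.75% lost and 5.14% gained over all tips. Without the steps that stand apart, and without 2L, 3L or X, gain exceeded loss as over all tips. Gaps of 200 bp or more numbered 3.32 per 100 distances in GNP and 3.05 in glia (inward 2.73 and 2.37). The order of the cell types was thus opposite to that of gaps of 150 bp, in the tips and inward. No paired analysis was possible because each cell type has 1 library. The read depth behind each call is unknown, which limits every difference in number.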
